A study of Mus musculus with 39 samples.

Results

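The immediate early genes analysed here were 10 genes chosen by name: Fos, Fosb, Fosl2, Jun, Junb, Egr1, Ier2, Nr4a1, Atf3 and Btg2. All 10 were found among the 27179 gene IDs of the count table, and no library listed any of them at 0. RNA was sequenced from parathyroid glands, which release parathyroid hormone and so set blood calcium, in 39 samples taken at 6 times of day, 4 h apart, given as zeitgeber time (ZT, hours after lights on). KO samples (18) came from PTHcre;Bmal1 flox/flox mice, in which a human PTH promoter drives Cre recombinase and each Bmal1 allele carries loxP sites around exon 8. Bmal1, listed in the count table as Arntl, encodes an activator at the centre of the circadian clock. WT samples (21) came from Bmal1 flox/flox littermates without Cre, so the floxed alleles were shared by both genotypes. All mice were males of 11 weeks, and each sample pooled the glands of 2 mice, so the p-values measure the spread between such pools. There were 3, 3, 3, 2, 3 and 4 KO samples and 3, 4, 2, 3, 5 and 4 WT samples at ZT0, ZT4, ZT8, ZT12, ZT16 and ZT20.

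Immediate early genes are switched on within minutes of a signal such as a hormone, growth factor, depolarisation or tissue handling, without new protein being made. Their induction is known to run through serum response factor with its ternary complex partners, and through CREB bound to cAMP response elements. Most encode short-lived transcription factors that then drive a later set of genes, and their mRNAs are themselves degraded quickly, so a level captures the recent past of the tissue.

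The libraries held 38111766 to 68938704 counts (median 55836787). Pth, the hormone gene that defines the tissue, took 6.34% to 19.1% of the counts. Arntl averaged 16.8 ± 6.26 CPM (counts scaled to library size) in KO glands and 22.6 ± 12.3 CPM in WT glands (SD, n = 18 and 21), a log2 fold change of -0.25 ± 0.19 (SE) that did not pass the test (edgeR quasi-likelihood, adjusted p = 0.465). A gene count does not single out the deleted exon. All 7 parathyroid markers were detected, and markers of other tissues varied between libraries. All 14 lymphoid markers were detected in both genotypes, with summed levels of 12.8 to 706 CPM in KO libraries and 9.84 to 1781 CPM in WT libraries, and the 10 thyroid follicle markers summed to 4.72 to 33869 CPM in KO libraries and 2.18 to 61693 CPM in WT libraries. In such bulk samples, fewer cells of a type and less RNA per cell cannot be told apart. For 3 samples titled ZT16 (KO replicate 1 and WT replicates 4 and 5) another label gave ZT20; they were grouped by title.

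The RefSeq promoter table of build GRCm38.p6 (300 bases around each start site) held 8 of the 10, all but Egr1 and Ier2. The 4 promoters below, from RefSeq on GRCm38.p6, are shown because Fos and Fosb moved together across libraries, no such relation was found for Jun, and Btg2 was the only one of the 8 with a full cAMP response element (CRE). Capitals mark the CRE core TGACG, read on either strand as TGACG or CGTCA.
Fos (chr12:85473640-85473939, + strand): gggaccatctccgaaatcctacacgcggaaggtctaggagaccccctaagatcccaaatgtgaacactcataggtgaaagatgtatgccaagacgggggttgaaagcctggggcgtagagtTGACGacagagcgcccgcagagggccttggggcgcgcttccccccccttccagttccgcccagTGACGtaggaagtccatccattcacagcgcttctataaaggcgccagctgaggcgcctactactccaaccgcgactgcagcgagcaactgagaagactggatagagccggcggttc
Fosb (chr7:19309996-19310295, - strand): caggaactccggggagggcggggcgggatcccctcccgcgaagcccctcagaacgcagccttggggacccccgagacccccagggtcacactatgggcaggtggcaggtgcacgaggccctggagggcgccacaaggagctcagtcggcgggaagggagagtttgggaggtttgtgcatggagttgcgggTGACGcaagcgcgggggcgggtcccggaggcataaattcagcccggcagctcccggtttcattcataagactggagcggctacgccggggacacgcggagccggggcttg
Jun (chr4:95052173-95052472, - strand): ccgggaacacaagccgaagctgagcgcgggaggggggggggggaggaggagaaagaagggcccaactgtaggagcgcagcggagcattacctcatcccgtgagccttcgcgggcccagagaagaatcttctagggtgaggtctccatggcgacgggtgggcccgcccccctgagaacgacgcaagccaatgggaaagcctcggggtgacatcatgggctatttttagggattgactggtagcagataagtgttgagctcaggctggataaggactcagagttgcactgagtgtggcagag
Btg2 (chr1:134079106-134079405, - strand): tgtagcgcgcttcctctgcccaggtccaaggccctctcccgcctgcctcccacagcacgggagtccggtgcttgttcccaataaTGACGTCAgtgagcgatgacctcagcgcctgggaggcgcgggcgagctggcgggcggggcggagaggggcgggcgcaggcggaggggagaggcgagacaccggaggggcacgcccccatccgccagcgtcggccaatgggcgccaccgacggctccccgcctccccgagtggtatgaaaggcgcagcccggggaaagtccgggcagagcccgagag

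The CRE core TGACG was found on either strand in 6 of the 8 promoters (Fos, Fosb, Junb, Nr4a1, Atf3 and Btg2), against 20.8% of 32851 mouse promoters of the same length. In Fos it began 129 and 66 bases before the start site, and in Fosb 60 bases before it. The full CRE, TGACGTCA, which contains that core on both strands, was found in 1 of 8, in Btg2 at 166 bases before the start site, against 1.79% of all promoters. The TATA motif TATAAA was found in 2 of 8 (Fos and Junb), against 13.6%. The CArG box, the site bound by serum response factor, was in 0 of 8 windows (1.63% of all promoters), the AP-1 site TGANTCA in 0 of 8 (7.81%) and the E-box CACGTG, the site bound by the clock factor that Bmal1 encodes, in 0 of 8 (7.15%). These are matches of letters within these windows only. Among the genes with the core, Fosb and Atf3 followed Fos across libraries, while the relations of Junb, Nr4a1 and Btg2 with Fos did not pass, as given below. Whether the motifs bear on these relations was not tested.

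The 10 genes lie on 8 chromosomes of the mouse genome (RefSeq annotation of GRCm38.p6). Among the AP-1 genes, Fos spans chr12:85473890-85477274, Fosb chr7:19302696-19310118, Fosl2 chr5:32136472-32157840, Jun chr4:95049036-95052222 and Junb chr8:84976909-84978748. The others are Egr1 at chr18:34861207-34864956, Ier2 at chr8:84661331-84662852, Nr4a1 at chr15:101253902-101274795, Atf3 at chr1:191170296-191183333 and Btg2 at chr1:134074865-134079155.

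Per kilobase of exon, the mean level over all 39 libraries was highest for Btg2 (15.9 CPM per kb), followed by Jun (11.7), Junb (11.1), Ier2 (7.25) and Fos (6.15). Fosl2 (1.5), Nr4a1 (1.48) and Egr1 (1.34) formed a lower tier, and Atf3 (0.53) and Fosb (0.346) were lowest, on the same scale. The lowest library held 18 counts of Atf3 and 22 of Fosb, so these 2 genes carried the most counting error. The highest library exceeded the lowest 25.7-fold for Egr1 and 21.3-fold for Fosb in CPM, and 2.25-fold for Jun and 2.05-fold for Ier2.

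**Figure D1:**
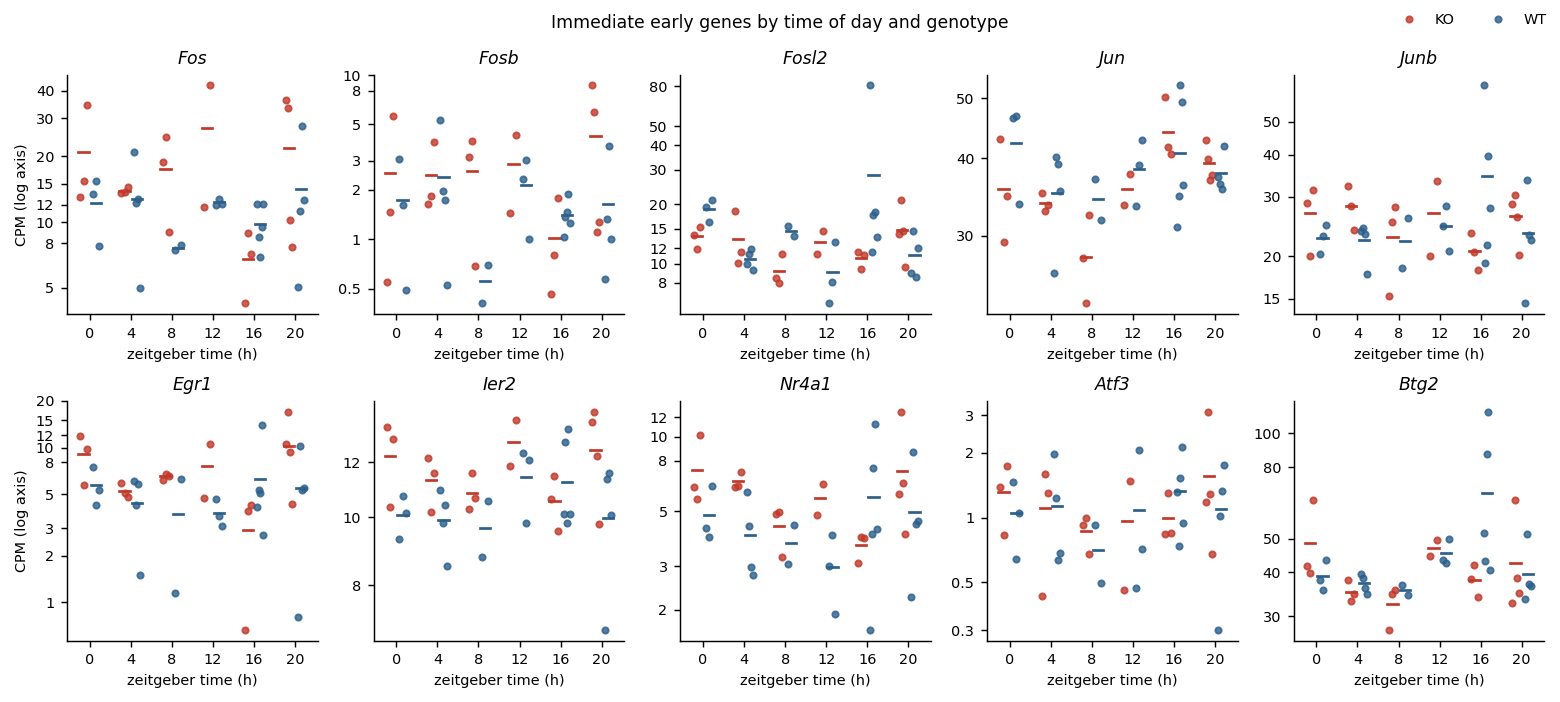
CPM of each of the 10 genes (log axis) in every library at the 6 zeitgeber times (hours), KO left of WT at each time; points are libraries and bars are group means. Most KO and WT groups overlap, and WT ZT16 replicate 1 stands at 80.6 CPM for Fosl2 and 64.1 CPM for Junb.

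The comparison of KO with WT glands asked whether deleting Bmal1 in parathyroid cells altered transcript levels. Over all times, 0 of the 10 immediate early genes passed the genotype test (edgeR quasi-likelihood with time as a factor, Benjamini-Hochberg over 18661 genes, threshold 0.05), where 7.69% of all genes tested did; at that share fewer than 1 of 10 would be called. At an unadjusted p under 0.05 there was 1 member, Ier2, where 21.1% of all genes reached that level. DESeq2 also called 0 members, but its share of all genes for this test is not given here. The estimated fold was positive for 7 of 10, and the median over the members was 0.13 on the log2 scale, beside 0.00098 over all genes.

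The Fos family of AP-1 is the part of the transcription factor that cannot bind DNA without a Jun partner. Fos, its classical member and the most used marker of recent cell activity, ranged in KO libraries over 4.24 to 42.4 CPM (median 13.7) and in WT libraries over 4.96 to 27.6 CPM (median 12.1). The 4 highest libraries were all KO: KO ZT0 replicate 3 (34.6), KO ZT12 replicate 2 (42.4) and KO ZT20 replicates 1 and 2 (36.3 and 33.4). Of those 4, the lymphoid marker scores (mean log2 CPM of the markers) were 3.76, 2.43, -0.15 and 3.61 in the same order, 3 of them among the 12 highest of all libraries. The log2 fold change was 0.49 ± 0.24 (SE; 95% interval -0.0015 to 0.99; adjusted p = 0.238, edgeR). Without the 12 libraries of highest lymphoid marker score, called lymphoid-rich from here, it was 0.10 (adjusted p = 0.937, edgeR; 0.129 to 0.937 over 12 alternatives, here and below not counting fits with 1 library left out), although Fos did not follow the score across libraries, as given below with the other relations; the part of lymphoid tissue in the fold was not tested.

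At no single time did Fos pass the test, and its groups overlapped at every time except ZT8. At ZT8, Fos was 18.8, 24.5 and 9.03 CPM in KO glands, against 7.42 and 7.83 CPM in WT glands, so all KO values lay above all WT values. At ZT12 it was 11.7 and 42.4 CPM in KO glands, against 12.0, 12.8 and 12.1 CPM in WT glands, so that 1 KO library lay far above and the other just below the WT values. At ZT16 it was 4.24, 8.93 and 7.13 CPM in KO glands, against 12.1, 8.54, 6.90, 9.45 and 12.1 CPM in WT glands, the only time at which the mean was lower in KO glands. At ZT20 it was 36.3, 33.4, 10.2 and 7.70 CPM in KO glands, against 5.03, 11.2, 27.6 and 12.7 CPM in WT glands, and the groups overlapped across nearly the whole range.

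Fosb, a close relative that is induced with Fos in many tissues, followed it at a lower level. It averaged 2.7 ± 2.27 CPM in KO glands and 1.70 ± 1.23 CPM in WT glands (SD, n = 18 and 21), a log2 fold change of 0.62 ± 0.37 (SE; 95% interval -0.13 to 1.37; adjusted p = 0.342, edgeR). Its widest separation was at ZT8, with 3.17, 3.95 and 0.69 CPM in KO glands against 0.406 and 0.698 CPM in WT glands, where a single KO library fell between the WT values. That contrast had a log2 fold change of 2.23 ± 1.06 (SE) and an adjusted p of 0.632 (edgeR). Without the 12 lymphoid-rich libraries the fold over all times was 0.23 on the log2 scale (adjusted p = 0.903; 0.23 to 0.903 over 12 alternatives).

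Fosl2 encodes Fra-2, the more slowly induced and longer-lasting member of the Fos family. It was the only member lower in every KO sample than in every WT sample at several times, namely ZT0, ZT8 and ZT16. At ZT0 it was 13.9, 11.9 and 15.4 CPM in KO glands, against 19.4, 16.3 and 21.1 CPM in WT glands. At ZT8 it was 8.45, 8.01 and 11.1 CPM in KO glands, against 15.5 and 13.8 CPM in WT glands. At ZT4, ZT12 and ZT20, in contrast, the group mean was higher in KO glands and the groups overlapped.

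At ZT16, Fosl2 was 11.5, 9.44 and 11.1 CPM in KO glands, against 80.6, 11.5, 17.7, 18.3 and 13.7 CPM in WT glands. WT replicate 1 stood far above everything else, and the lowest WT value was close to the highest KO value. The log2 fold change at ZT16 was -1.41 ± 0.43 (SE), the member contrast with the smallest p within a time (edgeR adjusted p = 0.291), and it was -0.53 without WT ZT16 replicate 1 (adjusted p = 0.545). Over all times the Fosl2 value was -0.19 ± 0.21 on the log2 scale (SE; edgeR adjusted p = 0.659), and -0.04 without that library (adjusted p = 0.912). Without the 3 samples of unclear time the ZT16 value was -1.84 (adjusted p = 0.281; 0.177 to 1 over 9 alternatives).

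Groups that did not overlap at a time were also common among all genes, with groups of 2 to 5 samples. They made up 11.0% of genes tested at ZT0 and 6.48% at ZT4. The shares for ZT8 and ZT12 were 23.8% and 23.6%, and those for ZT16 and ZT20 were 3.74% and 9.88%. Among the members there was 1 at ZT0 (Fosl2), 1 at ZT4 (Nr4a1), 2 at ZT8 (Fos and Fosl2), 2 at ZT12 (Egr1 and Nr4a1), 1 at ZT16 (Fosl2) and 0 at ZT20. With 10 members a count of 1 is the smallest above 0, and these counts were near the shares of all genes.

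The Jun family supplies the AP-1 partners that bind DNA alone or with Fos proteins. Jun, the abundant core member, averaged 36.3 ± 6.35 CPM in KO glands and 38.4 ± 6.42 CPM in WT glands (SD, n = 18 and 21). Its log2 fold change of -0.07 ± 0.07 (SE; edgeR adjusted p = 0.613) had a 95% interval of -0.21 to 0.07, or a fold of 0.867 to 1.05. Junb, which often restrains Jun-driven transcription, averaged 25.3 ± 5.32 CPM in KO glands and 25.8 ± 10.3 CPM in WT glands (log2 fold change 0.02 ± 0.14, adjusted p = 0.945, edgeR), and its sign turned to -0.03 with no time term. At ZT16 Junb was 23.4, 20.6 and 18.2 CPM in KO glands, against 64.1, 19.1, 21.6, 39.7 and 27.8 CPM in WT glands, with the groups overlapping and the same WT replicate 1 highest. That contrast was -0.73 ± 0.30 on the log2 scale (SE; edgeR adjusted p = 0.54) and -0.39 without WT ZT16 replicate 1 (adjusted p = 0.699).

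WT ZT16 replicate 1 was high for Fosl2 and Junb but not for Fos (12.1 CPM), Jun (31.0 CPM) or Nr4a1 (1.66 CPM, the lowest of any library). It also had the highest WT level of Maff (4.82 CPM), Gadd45g (69.3 CPM), Plk2 (188 CPM) and Zfp36 (22.7 CPM). These genes belong to a list of other primary response genes described below. Its lymphoid marker score was -2.75, near the low end of -2.96 to 5.26 over all libraries. It was also the library with the highest Pth share (19.1%) and the highest summed level of the parathyroid markers (352572 CPM), and its part in the ZT16 values is shown by the fits without it.

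Egr1 encodes a zinc finger factor induced by growth factors and calcium signals, and Nr4a1 an orphan nuclear receptor induced by cAMP and T cell receptor signals. Egr1 averaged 7.11 ± 3.78 CPM in KO glands and 5.07 ± 2.95 CPM in WT glands (SD, n = 18 and 21), a log2 fold change of 0.42 ± 0.30 (SE; 95% interval -0.19 to 1.02; adjusted p = 0.441, edgeR). Nr4a1 averaged 5.90 ± 2.37 CPM in KO glands and 4.56 ± 2.32 CPM in WT glands, a log2 fold change of 0.38 ± 0.20 (SE; 95% interval -0.02 to 0.78; adjusted p = 0.267, edgeR). At ZT4, Nr4a1 was 6.29, 6.33 and 7.22 CPM in KO glands, against 5.99, 4.38, 2.99 and 2.76 CPM in WT glands, all KO values above all WT values. At ZT12 it was again higher in every KO sample, at 4.85 and 6.42 CPM in KO glands against 3.01, 4.00 and 1.93 CPM in WT glands, and so was Egr1, at 4.71 and 10.5 CPM in KO glands against 4.67, 3.59 and 3.11 CPM in WT glands. At ZT16 the order of means turned, with Egr1 at 0.663, 3.91 and 4.27 CPM in KO glands against 4.14, 5.28, 5.11, 13.9 and 2.7 CPM in WT glands, and the groups overlapped. The 3 samples that another label gave as ZT20 were KO replicate 1 (0.663) and WT replicates 4 and 5 (13.9 and 2.7).

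Ier2 encodes a small nuclear protein of the primary response. It ranged over 9.56 to 14.2 CPM (median 11.6) in KO libraries and 6.91 to 13.4 CPM (median 10.2) in WT libraries, which overlapped over most of their range. Its log2 fold change of 0.17 ± 0.07 (SE; 95% interval 0.04 to 0.31, a fold of 1.03 to 1.24) had the smallest genotype p of the members, but its adjusted p was 0.112 (edgeR), and 0.0521 to 0.168 when each library was left out in turn. Atf3, a stress-induced repressor that pairs with Jun proteins, averaged 1.17 ± 0.615 CPM in KO glands and 1.12 ± 0.546 CPM in WT glands (SD, n = 18 and 21; log2 fold change 0.09 ± 0.24, adjusted p = 0.863, edgeR). Its sign turned to -0.08 with 4 tissue scores as covariates and to -0.03 without KO ZT20 replicate 2.

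Btg2 encodes an antiproliferative protein that recruits the CCR4-NOT complex to shorten mRNA tails and is abundant in resting lymphocytes. It averaged 40.5 ± 10.1 CPM in KO glands and 46.2 ± 19.6 CPM in WT glands (SD, n = 18 and 21), a log2 fold change of -0.11 ± 0.12 (SE; edgeR adjusted p = 0.666). At ZT16 it was 38.2, 42.1 and 34.0 CPM in KO glands, against 51.7, 43.2, 87.2, 115 and 40.8 CPM in WT glands, the high values being WT replicates 3 and 4. Those 2 libraries also had the 2 highest lymphoid marker scores, 4.61 and 5.26. Replicate 3 further had the highest marker scores of all libraries for macrophages (4.705) and for smooth muscle and pericytes (3.736). Replicate 4 had a thyroid follicle score of 5.144, where the highest of all libraries was 5.752. Replicate 4 was also a sample of unclear time, for which another label gave ZT20. The ZT16 contrast was -0.83 ± 0.25 on the log2 scale (SE; edgeR adjusted p = 0.292), -0.55 without WT ZT16 replicate 4 (adjusted p = 0.711), -0.24 without the 12 lymphoid-rich libraries (adjusted p = 0.757) and -0.14 without 5 libraries left out after the values were seen (WT ZT16 replicate 1 and the 4 of highest lymphoid score).

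**Figure D2:**
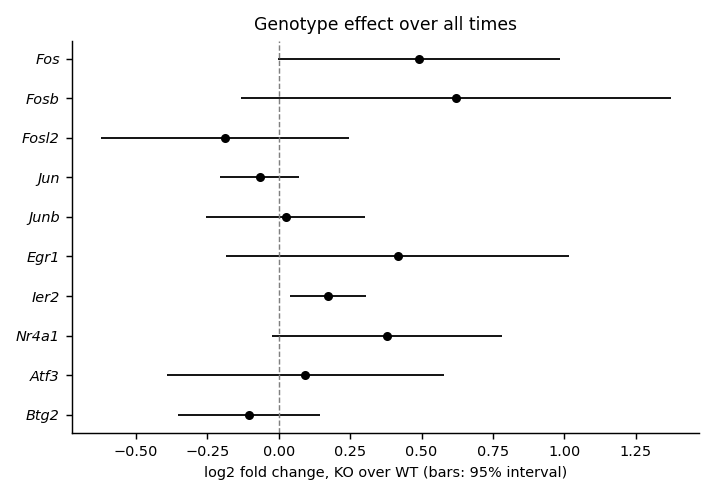
Log2 fold change of KO over WT over all times for each gene, with the 95% interval from the fit's standard error. All intervals but that of Ier2 include 0, and no member passed the adjusted threshold.

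Within single times, 0 of 10 members passed the edgeR test at ZT0 (0.0643% of all genes did), ZT4 (0.0750%), ZT8 (0.0589%), ZT12 (0.161%), ZT16 (0.182%) or ZT20 (0.890%). At an unadjusted p under 0.05 there were 0 members at ZT0, ZT4 and ZT12, 1 at ZT8 (Fosb), 3 at ZT16 (Fosl2, Junb and Btg2, all lower in KO glands) and 1 at ZT20 (Ier2, higher in KO glands). The share of all genes at that level was 7.76% for ZT8, 18.4% for ZT20 and 7.81% for ZT16. It was 8.42% for ZT12, 5.67% for ZT0 and 4.04% for ZT4. The counts of 0 or 1 member were thus near the shares of all genes. The 3 members at ZT16 were above that time's share, but their folds depended on single libraries. As given above, the fold was smaller without WT ZT16 replicate 1 for Fosl2 and Junb, and without WT ZT16 replicate 4 for Btg2. No other tool was run within times. The difference in time course between genotypes was tested as an interaction, which 0 of 10 members passed with edgeR (0 at an unadjusted p under 0.05) and 0 with DESeq2. Of all genes, 0.0161% passed with edgeR and 3.69% had an unadjusted p under 0.05 with it. The share that DESeq2 called for the interaction is not given here.

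The time courses asked whether the genes followed a 24 h rhythm. In KO glands 0 of 10 members passed the cosine test with edgeR (0.0779% of all genes did), with 2 at an unadjusted p under 0.05, where 8.27% of all genes were. In WT glands 0 of 10 passed (0.248% of all genes did), with 1 at an unadjusted p under 0.05, where 14.9% of all genes were. DESeq2 called 1 member in KO glands, Jun, and 0 in WT glands. Of all genes, DESeq2 called 85 of 17969 in KO glands and 342 of 18131 in WT glands.

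Jun in KO glands averaged 35.7 ± 6.92, 33.9 ± 1.15, 27.7 ± 4.52, 35.7 ± 2.85, 44.2 ± 5.24 and 39.3 ± 2.7 CPM in the order ZT0, ZT4, ZT8, ZT12, ZT16 and ZT20 (SD, n = 3, 3, 3, 2, 3 and 4). In WT glands it averaged 42.3 ± 7.39, 35.2 ± 6.41, 34.4 ± 3.73, 38.5 ± 4.66, 40.7 ± 9.54 and 37.8 ± 2.78 CPM in the same order of times (SD, n = 3, 4, 2, 3, 5 and 4). Both genotypes had their lowest mean at ZT8. The fitted amplitude, from mean to peak, was 0.25 ± 0.06 in KO glands and 0.09 ± 0.08 in WT glands on the log2 scale (SE), with peaks at ZT18.25 in KO glands and ZT18.86 in WT glands. Amplitudes with an SE, here and below, came from a least-squares fit to log2 CPM, separate from the edgeR fit behind the p-values. For Jun in KO glands edgeR gave an adjusted p of 0.35 and DESeq2 an adjusted p of 0.0344, the smallest over 11 alternatives, whose largest was 0.949 with time as a factor.

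Nr4a1 in KO glands had an amplitude of 0.42 ± 0.16 on the log2 scale (SE) with a peak near ZT0 (edgeR adjusted p = 0.575), and in WT glands 0.30 ± 0.23 (adjusted p = 0.575, edgeR). Btg2 had 0.14 ± 0.10 in KO glands (adjusted p = 0.774, edgeR), and in WT glands 0.32 ± 0.11 with a peak at ZT15.26 (edgeR adjusted p = 0.23). The WT peak of Btg2 lay at the time of its 2 lymphoid-rich libraries, and in edgeR's own fit the amplitude was 0.38 with all WT libraries and 0.12 without the 5 libraries named above; the part of lymphoid tissue in the rhythm was not tested. For WT ZT16 replicate 4, 1 of the 2 lymphoid-rich libraries, another label gave ZT20. For Fos and Fosb the WT amplitudes were 0.13 ± 0.21 and 0.09 ± 0.34 on the log2 scale, no larger than their errors. In KO glands they were 0.35 ± 0.32 and 0.28 ± 0.44 (SE; edgeR adjusted p = 0.983 and 0.937).

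The spread between libraries of the same genotype and time was measured as the SD of log2 CPM (prior count 2) within the 12 groups, on 27 residual degrees of freedom. It was 1.12 for Fosb, 0.94 for Egr1, 0.77 for Atf3, 0.74 for Fos and 0.61 for Nr4a1. It was 0.53 for Fosl2, 0.41 for Junb, 0.34 for Btg2, 0.22 for Jun and 0.20 for Ier2. Set against genes of like mean level (all genes cut into 10 equal bins), Fos stood at the 97.2th percentile of spread, Btg2 at the 95.8th, Egr1 at the 95.7th, Junb at the 95.2th, Fosl2 at the 93.0th and Fosb at the 91.5th, while Jun stood at the 86.5th, Nr4a1 at the 86.1th, Atf3 at the 61.0th and Ier2 at the 57.3th. For Fosl2 the SD was 0.33 without WT ZT16 replicate 1, and for Btg2 it was 0.15 without the 5 libraries.

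**Figure D3:**
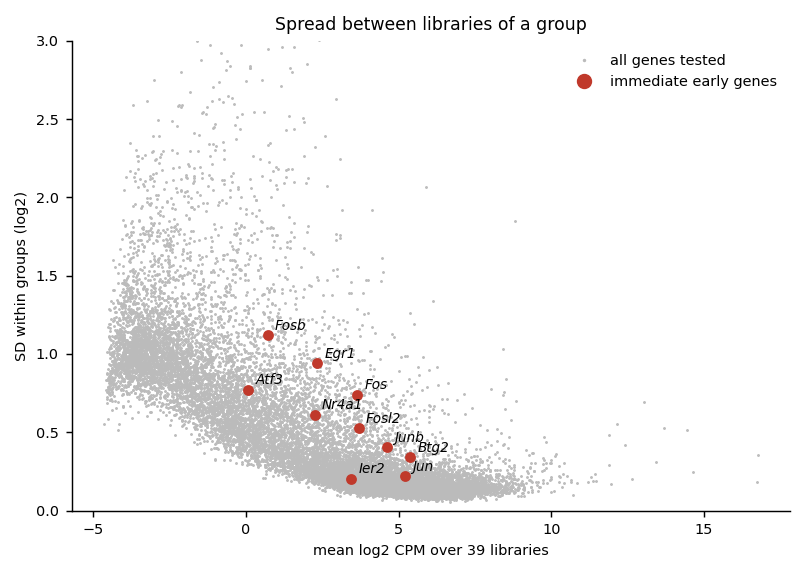
SD within the 12 groups (log2) against the mean log2 CPM over 39 libraries, for all genes tested (grey) and the 10 members (red, named). Fos, Egr1 and Fosb stand above most genes of like level and Ier2 sits among them; 28 genes with an SD above 3 lie off the axis.

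The libraries' deviations from their group means were compared between genes. Fosb followed Fos most closely (Pearson r = 0.85, Spearman rho = 0.80, 39 libraries, adjusted p = 0.00027 for r and 0.00054 for rho, permutation within groups, Benjamini-Hochberg over 9 relations). Ier2 (r = 0.58, rho = 0.44), Atf3 (r = 0.55, rho = 0.52) and Egr1 (r = 0.535, rho = 0.46) also passed, each with an adjusted p of 0.0111 for r by the same permutation test. Junb (r = 0.39, adjusted p = 0.0537) and Nr4a1 (r = 0.35, adjusted p = 0.0931) did not, nor did Fosl2 (r = 0.17, adjusted p = 0.304), Btg2 (r = 0.14, adjusted p = 0.469) or Jun (r = -0.14, adjusted p = 0.464). These values share library and depth.

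The Fos and Fosb relation held within each genotype, with r = 0.89 in KO libraries (n = 18, adjusted permutation p = 0.00936) and r = 0.80 in WT libraries (n = 21, adjusted permutation p = 0.0268; rho = 0.56, adjusted permutation p = 0.229). Without the 2 libraries farthest from the median of Fos, KO ZT20 replicate 4 and WT ZT20 replicate 1, it was 0.84 (adjusted permutation p = 0.00045). The relations of Fos with Ier2, Atf3 and Egr1 then had r = 0.44, 0.44 and 0.41 with adjusted permutation p-values of 0.0684, 0.0684 and 0.0726, so none of them passed in that smaller set. Nr4a1 followed Fos in KO libraries (r = 0.75, adjusted permutation p = 0.0333) and had r = 0.15 in WT libraries (adjusted permutation p = 0.656); the difference between the genotypes was not tested.

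Over all 45 pairs of members, as a description, the median r was 0.35, 10 pairs exceeded 0.5 and 6 were below 0. After Fos with Fosb, the closest pairs were Egr1 with Ier2 (r = 0.71), Fosl2 with Junb (r = 0.69) and Nr4a1 with Btg2 (r = 0.68).

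**Figure D4:**
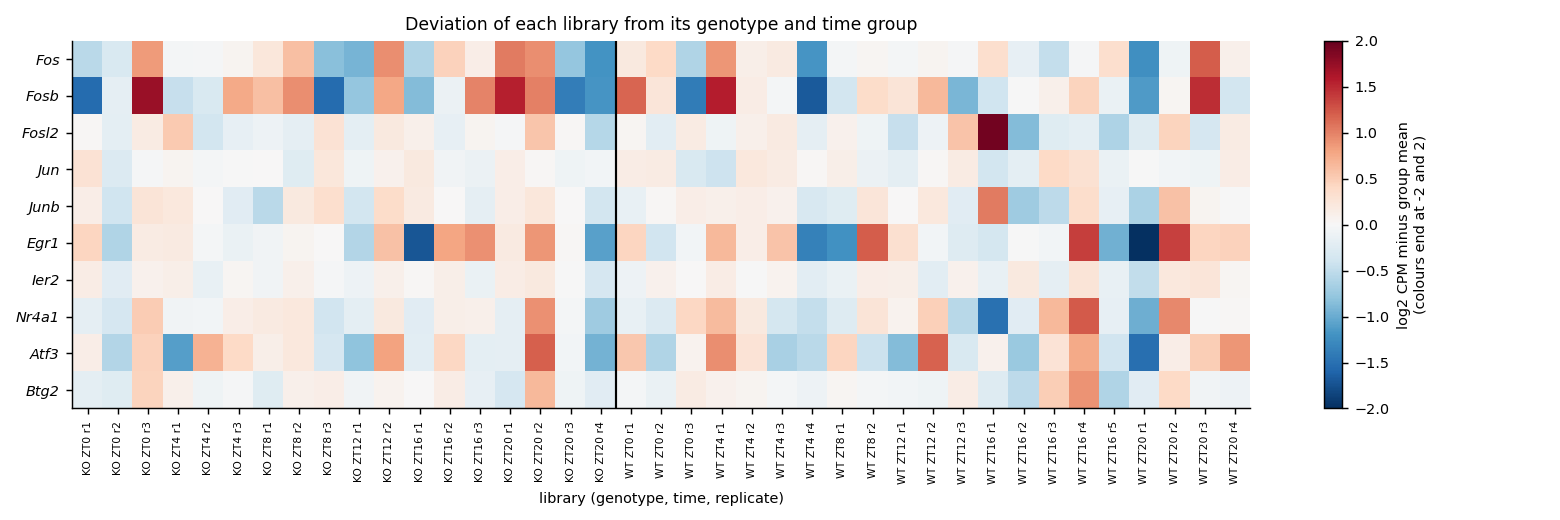
Log2 CPM minus the group mean for the 10 members (rows) in all 39 libraries (columns, KO left of the line and WT right of it). Fos and Fosb share their red and blue libraries, Jun and Ier2 are pale throughout, and WT ZT16 replicate 1 is dark red for Fosl2.

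The relation of each member to the lymphoid marker score was computed after the values had been seen (10 relations). Relations to the other marker scores are not given here, so those below cannot be called particular to lymphoid tissue. Btg2 followed the score (r = 0.75, rho = 0.66, 39 libraries, adjusted p = 0.0079 for r, permutation within groups), as did Nr4a1 (r = 0.62, rho = 0.42, adjusted permutation p = 0.0143) and Atf3 (r = 0.42, rho = 0.41, adjusted permutation p = 0.0467). For rho the adjusted permutation p was 0.0098 for Btg2, and 0.0963 for Nr4a1 and Atf3 alike, short of the threshold. No relation was found for Fos (r = -0.01, adjusted permutation p = 0.944). For Btg2 the relation had r = 0.63 in KO libraries (adjusted permutation p = 0.262) and 0.80 in WT libraries (adjusted permutation p = 0.044). Without the 2 libraries of highest score, WT ZT16 replicates 4 and 3, Btg2 had r = 0.66 (adjusted permutation p = 0.0843), Nr4a1 0.52 (adjusted permutation p = 0.0899) and Atf3 0.39 (adjusted permutation p = 0.129). None of these relations passed in that smaller set, though each r stayed positive.

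**Figure D5:**
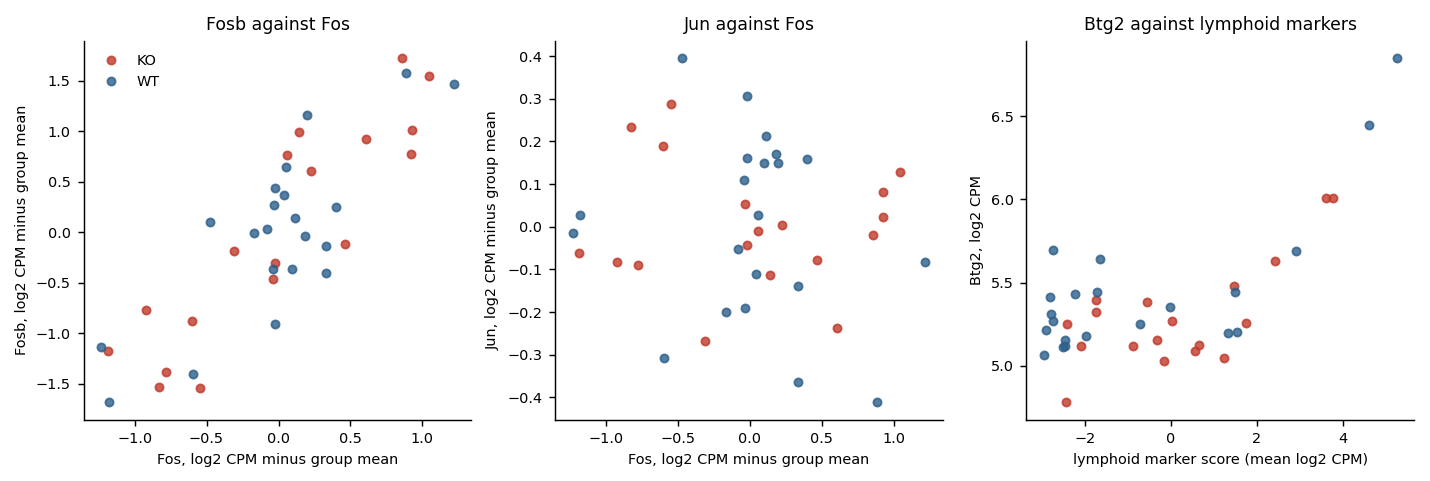
Left and middle, deviation from the group mean (log2 CPM) of Fosb and of Jun against that of Fos; right, log2 CPM of Btg2 against the lymphoid marker score (mean log2 CPM of 14 markers); each point is 1 library, KO red and WT blue. Fosb rises with Fos (r = 0.85), Jun does not (r = -0.14), and the 2 libraries with the most Btg2 have the 2 highest scores.

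A list of 44 other primary response genes was tested in the same fits, and 41 passed the filter on low counts. For genotype, 4 of the 41 passed, 2 higher and 2 lower in KO glands, near the 7.69% of all genes that passed, and the list's median was 0.06 on the log2 scale. At an unadjusted p under 0.05 there were 11 of the 41, beside 21.1% of all genes. The 4 are described one by one and say nothing of the list. Trib1, a pseudokinase scaffold that promotes protein degradation, rose by 0.31 ± 0.07 on the log2 scale (SE; adjusted p = 0.00226, edgeR), at 94.3 to 168 CPM (median 124) in KO libraries and 73.2 to 129 CPM (median 101) in WT libraries. Ccn2, a secreted matricellular protein, rose by 0.78 ± 0.21 (SE; adjusted p = 0.0164, edgeR), at 7.97 to 57.6 CPM (median 14.6) in KO libraries and 4.25 to 20.0 CPM (median 8.61) in WT libraries. The ranges of both genes overlapped between the genotypes. With the replicate block Ccn2 no longer passed (log2 fold change 0.70, adjusted p = 0.051, edgeR; 0.00155 to 0.051 over 12 alternatives).

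Maff, a small basic leucine zipper factor, had a log2 fold change of -0.95 ± 0.21 (SE; edgeR adjusted p = 0.00248), with 0.553 to 1.52 CPM (median 1.06) in KO libraries and 0.665 to 4.82 CPM (median 1.90) in WT libraries. Gadd45g, a stress and growth arrest protein, had a log2 fold change of -0.51 ± 0.14 (SE; edgeR adjusted p = 0.0186), with 8.46 to 31.3 CPM (median 15.1) in KO libraries and 9.79 to 69.3 CPM (median 20.7) in WT libraries. Both were lower in KO glands with overlapping ranges. The highest WT value of each was that of WT ZT16 replicate 1, and fits without that library alone are not given here. Without the 12 lymphoid-rich libraries Maff (log2 fold change -0.74, adjusted p = 0.224), Gadd45g (-0.52, adjusted p = 0.259) and Trib1 (0.31, adjusted p = 0.0909) no longer passed, in a fit of fewer samples, and these were their largest values over 12 alternatives. Gadd45g also missed the threshold with 4 tissue scores as covariates (adjusted p = 0.0603, edgeR) and with no time term (adjusted p = 0.069, edgeR).

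Gadd45g was also the only gene of that list to pass the rhythm test in WT glands (1 of 41, adjusted p = 0.034, edgeR), where 0.248% of all genes passed. At an unadjusted p under 0.05 there were 10 of the 41 in WT glands, a level that 14.9% of all genes reached. At ZT12 Gadd45g was 31.3 and 28.1 CPM in KO glands, against 37.5, 41.2 and 54.7 CPM in WT glands, and at ZT0 8.46, 13.4 and 14.5 CPM in KO glands, against 13.1, 9.79 and 15.7 CPM in WT glands. Both genotypes were thus higher at ZT12 than at ZT0. The amplitude was 0.64 ± 0.13 in KO glands and 0.75 ± 0.14 in WT glands on the log2 scale (SE), peaking at ZT11.89 in KO glands and ZT12.43 in WT glands. In KO glands 0 of 41 genes passed with edgeR (6 at an unadjusted p under 0.05, a level that 8.27% of all genes reached; Gadd45g adjusted p = 0.104), while DESeq2 called Gadd45g there (adjusted p = 0.000141; 0.000141 to 0.844 over 11 alternatives). Csrnp1 (adjusted p = 0.149), Zfp36 (0.216) and Trib1 (0.262) came next in WT glands, and Sgk1 (adjusted p = 0.531), Plk2 (0.531) and Egr3 (0.538) in KO glands, all by edgeR and short of the threshold. The WT call of Gadd45g held in 9 of 21 fits with a library removed and was lost with 4 tissue scores as covariates (adjusted p = 0.0804; 1.2e-05 to 0.143 over 11 alternatives).

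Of 28 upstream factors and kinases, all tested, 2 passed for genotype, near the 7.69% of all genes. For rhythm 0 passed in KO glands (1 at an unadjusted p under 0.05, beside 8.27% of all genes) or WT glands (4 at an unadjusted p under 0.05, beside 14.9%), all with edgeR. Rps6ka1, a kinase of the ribosomal S6 kinase family that acts below ERK, rose by 0.21 ± 0.05 on the log2 scale (SE; adjusted p = 0.00326, edgeR), averaging 50.6 ± 4.06 CPM in KO glands and 44.2 ± 5.46 CPM in WT glands (SD, n = 18 and 21). Crtc3, a CREB coactivator, had a log2 fold change of -0.21 ± 0.06 (SE; edgeR adjusted p = 0.022), averaging 22.2 ± 2.54 CPM in KO glands and 25.5 ± 3.55 CPM in WT glands. Mapk14 (adjusted p = 0.0552) and Elk3 (0.16) came next for genotype, and the smallest rhythm p-values were those of Mrtfa, Crtc3, Mapk9 and Prkacb in KO glands (adjusted p = 0.578 to 0.722) and of Camk4, Mapk9, Prkacb and Elk1 in WT glands (adjusted p = 0.236 to 0.332), all by edgeR. Without the 12 lymphoid-rich libraries neither Rps6ka1 nor Crtc3 passed, with a log2 fold change of 0.19 and an adjusted p of 0.183 for Rps6ka1, and -0.24 and 0.144 for Crtc3, the largest of 12 alternatives for each. Crtc3 also missed it with 4 tissue scores as covariates (adjusted p = 0.0626, edgeR).

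Among the genes whose deviations were most like the mean of the 10 members over the 39 libraries, of 12948 protein-coding genes ranked, were Mapk11 (r = 0.76), Irf1 (r = 0.72), Zfp36 (r = 0.72), Birc3 (r = 0.71), Cd44 (r = 0.70), Nrros (r = 0.70) and Csnk1e (r = 0.69), given as a description.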

How the data were processed

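Stranded libraries were made from total RNA of pooled parathyroid glands, per the labels' protocols. The authors deposited raw gene counts. Build mm10, featureCounts 2.0.1, STAR 2.7.8a and DESeq2 1.30.1 are listed, without roles, per the submitters' processing notes. Which annotation and strand setting served the counting is not given in the sources used here; reads of genes that overlap on opposite strands may be shared. Even numbers made up 89.6% of the counts between 1 and 10, a pattern that counting each mate of a read pair would give. Of 27179 gene IDs, 25275 (98.0% of counts) matched the RefSeq gene table of GRCm38.p6.

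Counts were scaled by TMM (factors 0.839 to 1.10) and tested by robust quasi-likelihood in edgeR 4.0.16 (R 4.3.3; filterByExpr by group, Benjamini-Hochberg, threshold 0.05). The genotype fit had time as a factor, rhythm had 2 cosine terms of 24 h, and contrasts within times came from 12 group means. Amplitudes with an SE and their peaks came from a separate least-squares fit of the cosine terms to log2 CPM. DESeq2 1.42.0, other filters and scalings, tissue scores, a replicate block, sample time labels and leaving out libraries were alternatives. Intervals use the fit's SE on 32 residual degrees of freedom. Correlations used 100000 permutations within groups. The edgeR tests and the permutation test of correlations were tried on simulated data, and DESeq2 was not. The 48 replicate pairs differed by a chi-square of 34.1 to 349 per gene, so none was a copy. All 10 members were named in every comparison; from the other lists up to 4 genes of smallest p per test were named, with the 8 genes most like the members, of which 1 is not reported here. The members, lists and tests were chosen with earlier results of these data known.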

Additional observations from a re-analysis of the deposited data

Results flagged for a closer look

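Of 40 sets of 4 or 5 libraries (1 member in 1 group each, on log2 CPM) tested for a library far from the rest, 2 stood apart, where chance gives about 1 in 20. Fosl2 in WT ZT16 replicate 1 stood at 80.6 CPM, with a gap to the next library of 0.762 of the group's range (n = 5, critical value 0.71). Junb in WT ZT4 replicate 4 stood at 17.7 CPM, below the rest of its group, with a gap of 0.873 of the range (n = 4, critical value 0.829).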

How the results depend on the processing

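Over 4489 fits of single members under 15 settings and with each library left out, 1 passed the threshold, Jun for rhythm in KO glands with DESeq2. Across these fits, those of the other named genes and the relations of Fos, no called value changed sign. An amplitude such as that of Jun cannot change sign, and the uncalled genotype values of Junb and Atf3 did, as given above. The count of all genes called moved by over 1.5 times in the following cases, whose causes were not tested. For genotype it was 454 without the 12 lymphoid-rich libraries. For rhythm in WT it was 25 without them, 27 with the replicate block and 342 with DESeq2. For rhythm in KO it was 9 without the 3 samples of unclear time, 8 with them at ZT20, 3 with 4 tissue scores as covariates, 2 without the 12 lymphoid-rich libraries, 7 with the replicate block, 9 without 5 libraries, 8 with time as a factor and 85 with DESeq2. At ZT0 it was 19 with tissue scores and 19 without 5 libraries. At ZT12 it was 16 with the 3 samples at ZT20, 9 with tissue scores and 52 without 5 libraries. At ZT16 it was 15 without the 3 samples, 6 with them at ZT20, 18 without the 12 libraries and 6 without 5. At ZT20 it was 288 for genes of at least 1 CPM, 80 with the 3 samples at ZT20, 22 without the 12 libraries and 107 without 5. Without the 12 libraries no KO sample remained at ZT12, so that contrast has no value. Leaving out 1 library gave 1125 to 1735 calls for genotype, 27 to 63 for rhythm in WT, 7 to 19 for rhythm in KO, 2 to 4 for the rhythm difference, and 4 to 15, 5 to 18, 5 to 19, 12 to 33, 4 to 52 and 36 to 347 at ZT0 to ZT20, and 4 to 6 relations of Fos. The ZT20 extremes came without WT ZT20 replicate 3 and without WT ZT16 replicate 1.

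Replicate numbers were not used as pairs in the main fits, and whether they mark pairs was not tested. Of 17 pairs with the same number, r was -0.411 to 0.716, 8 were over 0.1 and 7 correlated best with their own number. With the replicate block Ccn2 had an adjusted p of 0.051 (edgeR). Counts of Atf3 and Fosb were the lowest, and the spread of Fos, Fosb and Egr1 limits what could be detected.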
